A study of Canis lupus familiaris and Felis catus with 4 samples.

Results

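The miRNAs carried by urinary exosomes (UExos) of cats with kidney disease (KD) were set against those of dogs with KD. The comparison took every mature miRNA entry of the deposited table with at least 10 reads summed over the KD cat and KD dog libraries, which were 96 of 2031 entries. A further 110 entries had a read in at least 1 of both libraries but fell below that minimum. At the threshold, 6 entries had a sum of 10 reads, such as miR-107-3p with 6 reads in KD cats and 4 in KD dogs. Just outside it, 5 entries had a sum of 9, such as miR-128-3p on chromosome 1 with 3 reads in KD cats and 6 in KD dogs. Each group of the study was 1 pool of urine exosome RNA sequenced as 1 library, from 45 KD cats, 47 KD dogs, 43 cats with normal renal function (NR) and 37 NR dogs. The cats were hospital patients of mixed and named breeds, and KD was assigned from serum creatinine, blood urea nitrogen, urine colour, medical history and the veterinarian's diagnosis. The study describes the KD cats as older than the NR cats. How the dogs were chosen, the ages of the dogs and the treatments of the pooled animals are not given in the sources used here. KD cats and KD dogs thus share the KD label and the RNA kit, and differ in species, in patients and in library. The study states that KD tends to affect the glomerulus in dogs and the tubulointerstitium in cats. The kind and stage of KD thus cannot be told apart from species here. With 1 library per group no test between species was possible and no p-value is given. Each ratio has a 95% interval that is exact given the total of both counts (Clopper-Pearson), and it covers counting error only, not differences between animals.

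Exosomes are small vesicles released when multivesicular bodies fuse with the cell membrane, and those in urine come from cells lining the nephron and the lower urinary tract, with a part from blood cells. They protect miRNAs, short RNAs that bind messenger RNAs mainly through the seed, bases 2 to 8 from the 5′ end. miRNAs with the same seed form a family with largely shared targets, and some families mark a cell type, such as miR-192 in tubular epithelium, miR-200 in epithelium and miR-143 in smooth muscle. In a pool of vesicles, fewer vesicles from a cell type and less of a miRNA per vesicle cannot be told apart.

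The 96 entries had 58 distinct seeds, and 19 seeds were shared by miRNAs of different names. The sequences below are those on which the results turn. They are the mouse sequences listed in the deposited table, written as DNA with the seed in capitals, because the authors counted the reads of both species over mouse miRNAs. The first pair, miR-10a-5p and miR-10b-5p, made up most of the reads in both libraries and differs by 1 substitution, T12A, counted from the 5′ end of miR-10a-5p. On mm10, miR-10a-5p lies on chr11:96317186-96317208 and miR-10b-5p on chr2:74726074-74726096, both on the plus strand.
miR-10a-5p: tACCCTGTagatccgaatttgtg
miR-10b-5p: tACCCTGTagaaccgaatttgtg

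The second set holds the tubular miRNAs miR-192-5p and miR-215-5p, which share a seed and differ by C1A, A12T and C20A. miR-192-5p lies on chr19:6264857-6264877 of mm10 (plus strand) and miR-215-5p on chr1:185313610-185313630 (plus strand).
miR-192-5p: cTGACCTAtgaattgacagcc
miR-215-5p: aTGACCTAtgatttgacagac

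The miR-200 family has 2 seeds that differ by 1 base. Both are shown because miR-141-3p, of the first seed, had the lowest ratio of the family in KD cats. miR-141-3p is on chr6:124717917-124717938 (minus strand), beside miR-200c-3p on chr6:124718324-124718346 (minus strand). The other members lie together on the minus strand of chromosome 4, miR-429-3p on chr4:156053916-156053937, miR-200a-3p on chr4:156054911-156054932 and miR-200b-3p on chr4:156055685-156055706.
miR-141-3p: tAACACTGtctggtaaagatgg
miR-200a-3p: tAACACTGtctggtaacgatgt
miR-200b-3p: tAATACTGcctggtaatgatga
miR-200c-3p: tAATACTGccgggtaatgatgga
miR-429-3p: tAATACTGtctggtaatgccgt

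The last set holds some of the other miRNAs described below whose interval excluded equal shares in KD cats and KD dogs. It also holds miR-148b-3p and miR-221-3p, the seed partners of miR-148a-3p and miR-222-3p. On mm10, the copies of miR-26a-5p lie on chr10:126995543-126995564 and chr9:119031811-119031832 (plus strand). miR-148a-3p lies on chr6:51269829-51269850 (minus strand), miR-148b-3p on chr15:103285185-103285206 (plus strand) and miR-21a-5p on chr11:86584120-86584141 (minus strand). miR-221-3p lies on chrX:19146307-19146329 and miR-222-3p on chrX:19146903-19146923, both on the minus strand. miR-27b-3p lies on chr13:63300760-63300780, miR-142-5p on chr11:87756867-87756887 and miR-203-3p on chr12:112130927-112130948, all on the plus strand. miR-146a-5p lies on chr11:43374435-43374456, let-7i-5p on chr10:122985698-122985719 and miR-130a-3p on chr2:84741116-84741137, all on the minus strand.
miR-26a-5p: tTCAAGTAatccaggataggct
miR-148a-3p: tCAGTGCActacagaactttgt
miR-148b-3p: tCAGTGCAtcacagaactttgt
miR-21a-5p: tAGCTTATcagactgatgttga
miR-221-3p: aGCTACATtgtctgctgggtttc
miR-222-3p: aGCTACATctggctactgggt
miR-27b-3p: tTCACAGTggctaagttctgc
miR-146a-5p: tGAGAACTgaattccatgggtt
miR-142-5p: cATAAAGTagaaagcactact
miR-203-3p: gTGAAATGtttaggaccactag
let-7i-5p: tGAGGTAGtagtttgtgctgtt
miR-130a-3p: cAGTGCAAtgttaaaagggcat

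The KD cat library held 23784 mature miRNA reads and the KD dog library 63355. The same 4 entries led both libraries in the same order, miR-10b-5p, miR-10a-5p, miR-3107-5p and miR-486-5p. miR-10b-5p, encoded in a Hox gene cluster, had 15050 reads in KD cats (63.3% of miRNA reads) and 33624 reads in KD dogs (53.1%). miR-10a-5p, its partner from another Hox cluster, had 2382 reads in KD cats (10.02%) and 10999 reads in KD dogs (17.4%). Together the miR-10 entries held 73.3% of the reads in KD cats (95% exact binomial interval 72.7 to 73.9%) and 70.4% in KD dogs (70.1 to 70.8%). miR-486-5p and miR-3107-5p are 1 mature sequence counted at 2 mouse loci, a miRNA abundant in red blood cells and muscle. With their 3p arms they held 12.8% in KD cats (12.3 to 13.2%) and 9.93% in KD dogs (9.70 to 10.2%). The 8 entries of miR-10, miR-486 and miR-3107 left 3316 reads in KD cats and 12434 in KD dogs for all other miRNAs. The effective number of entries, the exponential of the Shannon entropy, was 5.18 in KD cats and 7.12 in KD dogs. Without these 8 entries it was 35.5 in both.

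Ratios were therefore computed on 2 scales. The first is the share of all mature miRNA reads. The second is the share of the reads outside these 8 entries, named the remaining reads below. The second scale moves every log2 ratio up by 0.49, which is close to the size of the median log2 ratio of the 96 entries on the first scale (-0.49). A ratio on the remaining reads is thus close to the ratio relative to the median entry. A ratio with no scale named is on all reads, and adding about 0.49 to it and to its interval gives its value on the remaining reads.

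On shares of all miRNA reads, 12 of the 96 entries were over 2-fold higher in KD cats (12.5% of those compared) and 30 were over 2-fold lower (31.2%). On the remaining reads, 23 were higher (24%) and 16 lower (16.7%). The balance thus turned with the scale. Where the whole counting interval had to lie past 2-fold, 4 entries were higher (4.17%) and 9 lower (9.38%) on all reads, and 5 higher (5.21%) and 3 lower (3.12%) on the remaining reads. The 9 lower ones were miR-30b-5p, miR-222-3p, miR-192-5p, miR-141-3p, miR-151-5p, both copies of miR-26a-5p, miR-148a-3p and miR-21a-5p. The 4 higher ones were miR-143-3p, miR-298-5p, miR-130a-3p and miR-470-5p, to which miR-27b-3p was added on the remaining reads. On the remaining reads, miR-30b-5p, miR-192-5p and miR-141-3p were left among the lower ones.

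**Figure D1:**
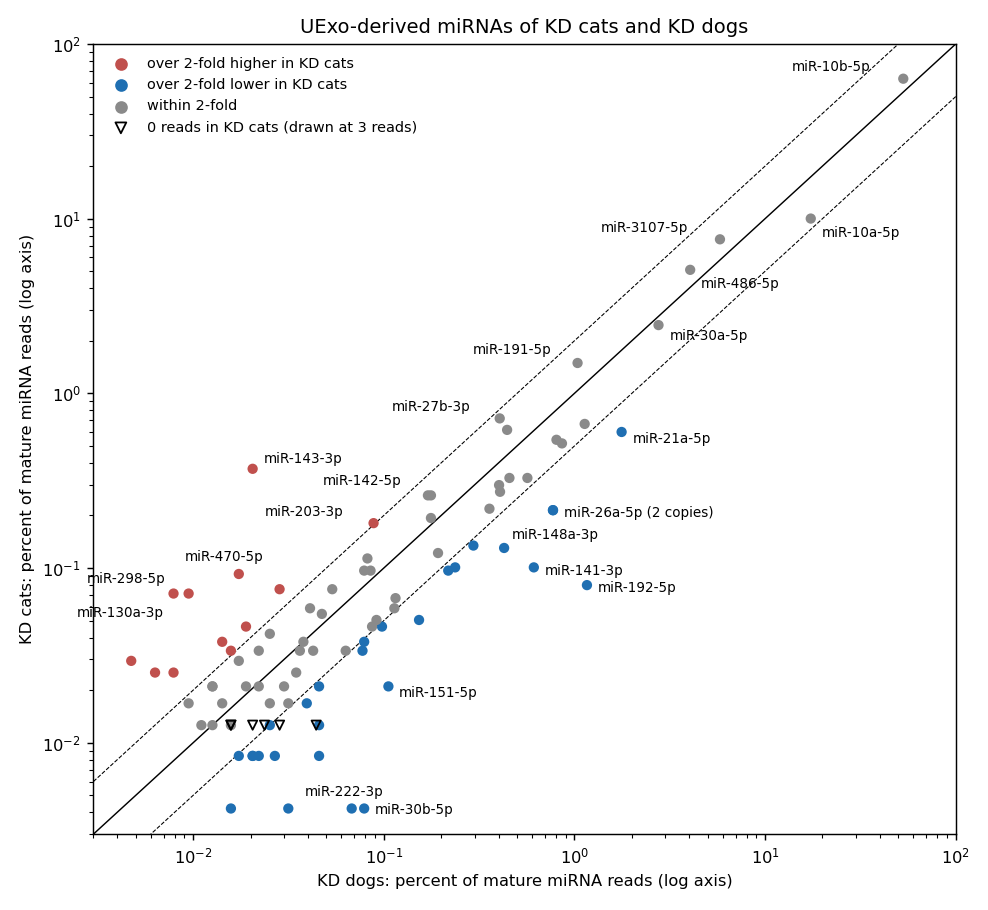
Percent of mature miRNA reads in KD cats (y) and KD dogs (x), both log axes, for the 96 entries with at least 10 reads in these 2 libraries. The solid line marks equal shares and the dashed lines 2-fold. Points lie near the solid line at high shares, with 12 entries over 2-fold higher and 30 over 2-fold lower in KD cats, and the 6 entries without a read in KD cats are drawn at the share of 3 reads.

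Other scalings gave further splits. They were 12 higher and 27 lower with DESeq2's median of ratios, 18 and 17 with edgeR's TMM factors, and 29 and 12 on the deposited normalized values. Read counts without scaling gave 4 higher and 70 lower. Of the 96 entries, 16 were past 2-fold in the same direction under all 6 scalings. The 12 lower ones were miR-192-5p, miR-141-3p, both copies of miR-26a-5p, miR-222-3p, miR-30b-5p, miR-151-5p, miR-423-3p, miR-451a, miR-28a-5p, let-7i-5p and miR-92b-3p. For miR-92b-3p, 3 reads were put in place of 0 in KD cats. The 4 higher ones were miR-143-3p, miR-298-5p, miR-130a-3p and the chromosome 11 copy of miR-103-3p. These calls use the ratio alone and leave counting error aside. miR-28a-5p had 1 read in KD cats and 10 in KD dogs, with an interval that includes 0 (-7.35 to 0.90). On the remaining reads the intervals of miR-451a (-7.79 to 0.23), let-7i-5p (-3.73 to 0.32) and miR-423-3p (-5.06 to 0.03) included 0 as well.

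**Figure D2:**
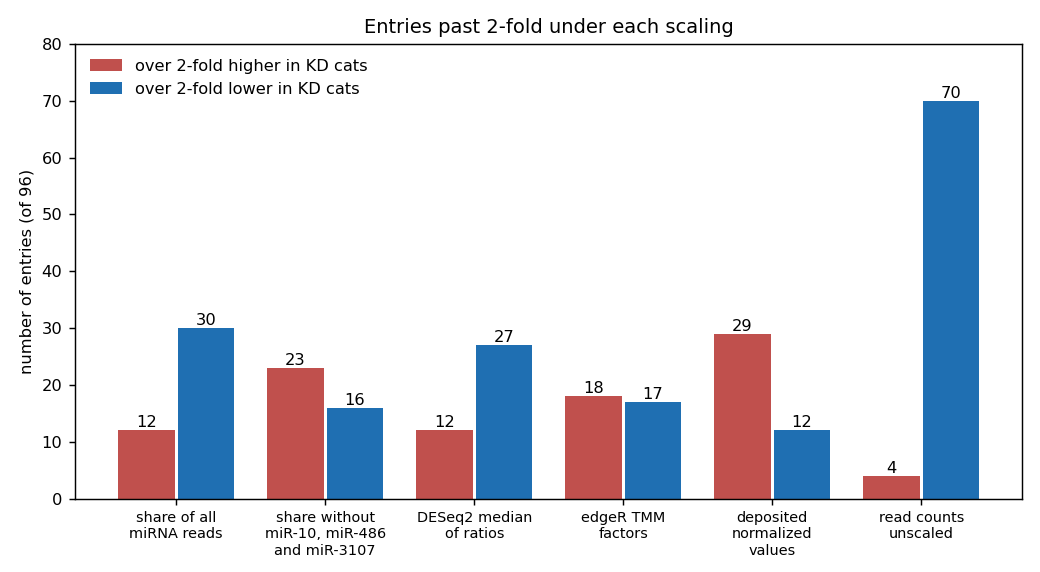
Number of the 96 entries over 2-fold higher (left bars) and over 2-fold lower (right bars) in KD cats under 6 scalings of the same 2 libraries. The split runs from 29 higher and 12 lower on the deposited normalized values to 4 higher and 70 lower on unscaled read counts.

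The tubular miRNAs were a small part of the KD cat library. miR-192-5p, which is abundant in the proximal tubule and is regulated by TGF-β, had 19 reads in KD cats (0.0799%) and 737 reads in KD dogs (1.16%). It was thus 14.6-fold lower in KD cats, with a log2 ratio of -3.86 (95% interval -4.60 to -3.21), and 10.3-fold lower on the remaining reads (log2 ratio -3.37, -4.11 to -2.72). It was the seventh most abundant entry in KD dogs. Its seed partner miR-215-5p had 5 reads in KD cats and 19 in KD dogs, a log2 ratio of -0.51 with an interval that includes 0 (-2.29 to 0.96). Within this seed, miR-192-5p made up 79.2% of 24 reads in KD cats (57.8 to 92.9%) and 97.5% of 756 reads in KD dogs (96.1 to 98.5%). The share within a seed does not depend on the scaling between libraries. miR-194-5p, which is transcribed together with miR-192 or miR-215, had 0 reads at both copies in KD cats, against 15 and 9 reads in KD dogs. With 3 reads put in place of 0, the chromosome 1 copy was 1.88-fold lower in KD cats. With both copies summed the log2 ratio was -1.59, which is past 2-fold. These values take the KD dog count as exact and have no interval. miR-204-5p, a miRNA of tubular epithelium, had 8 reads in KD cats and 40 in KD dogs, a log2 ratio of -0.91 (-2.21 to 0.21). Summed over all entries of these 4 miRNAs, KD cats had 32 reads (0.135%) and KD dogs 821 (1.30%), a log2 ratio of -3.27 (-3.83 to -2.76). On the remaining reads the sum had a log2 ratio of -2.77 (-3.33 to -2.27). Of the 4 measured entries, which hold miR-194-5p by its chromosome 1 copy alone, 1 was over 2-fold lower on either scale. This stands beside 31.2% of all 96 entries on all reads and 16.7% on the remaining reads. The median of the 4 was -0.91, beside -0.49 for all 96. The sum rests mainly on miR-192-5p, with 737 of the 821 reads in KD dogs.

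Among epithelial miRNAs, miR-141-3p was lower and miR-203-3p higher in KD cats. miR-141-3p, which represses the ZEB inducers of epithelial-mesenchymal transition, had 24 reads in KD cats (0.101%) and 388 reads in KD dogs (0.612%). It was 6.07-fold lower, with a log2 ratio of -2.60 (-3.26 to -2.01), and 4.31-fold lower on the remaining reads. miR-200a-3p, of the same seed, had 5 reads in KD cats and 29 in KD dogs, a log2 ratio of -1.12 (-2.85 to 0.26). miR-200b-3p, miR-200c-3p and miR-429-3p, of the other seed, had 16, 5 and 6 reads in KD cats. In KD dogs they had 73, 14 and 22 reads, and the log2 ratios were -0.78, -0.07 and -0.46, each with an interval that includes 0. Summed by seed, the log2 ratio was -2.43 (-3.03 to -1.89) for miR-141 and miR-200a. It was -0.60 (-1.27 to 0.02) for miR-200b, miR-200c and miR-429. The first sum rests on miR-141-3p, with 24 of the 29 reads of its seed in KD cats and 388 of 417 in KD dogs. The interval of miR-200a-3p overlapped those of miR-200b-3p, miR-200c-3p and miR-429-3p. miR-203-3p, a miRNA of stratified epithelium, had 43 reads in KD cats and 56 in KD dogs, a log2 ratio of 1.03 (0.42 to 1.63) and 1.53 on the remaining reads. On unscaled read counts its direction turned (-0.38). miR-205-5p, also of stratified epithelium, had 8 reads in KD cats against 14 in KD dogs and a log2 ratio of 0.61 (-0.85 to 1.96). Over the 7 measured epithelial entries, 1 was higher and 2 lower by over 2-fold on all reads, with a median of -0.46, beside 12.5% higher, 31.2% lower and a median of -0.49 for all 96. On the remaining reads the balance was the opposite, 2 higher and 1 lower with a median of 0.032, beside 24% higher and 16.7% lower for all 96. Epithelial reads summed to 0.454% in KD cats (0.373 to 0.548%) and 0.9502% in KD dogs (0.876 to 1.03%), a log2 ratio of -1.07 on all reads and -0.57 on the remaining reads.

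Of the entries with higher shares in KD cats, miR-143-3p had the largest ratio. This miRNA, which maintains the contractile state of smooth muscle, had 88 reads in KD cats (0.370%) and 13 reads in KD dogs (0.0205%). It was 18.03-fold higher in KD cats, with a log2 ratio of 4.17 (3.32 to 5.14), and 25.4-fold higher on the remaining reads. It was over 2-fold higher under all 6 scalings, and it was also the only measured member of the mesenchymal list. Its cluster partner miR-145a had 0 reads in both KD libraries, as had miR-199a, miR-199b and miR-214, which are miRNAs of fibroblasts and smooth muscle. A count of 0 allows a share of up to 0.0126% in KD cats and 0.00474% in KD dogs. Set against miR-192-5p, a pairing chosen after the values were seen, miR-143-3p was 82.2% of the 107 reads of the pair in KD cats (73.7 to 89.0%) and 1.73% of 750 reads in KD dogs (0.926 to 2.95%).

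miR-26a-5p, miR-148a-3p and miR-21a-5p were over 2-fold lower in KD cats on both scales. Of all 96 entries, 31.2% were over 2-fold lower on all reads and 16.7% on the remaining reads. By any amount, 60 were lower on all reads and 48 on the remaining reads, where 2 had no value. On the deposited normalized values, miR-148a-3p (-0.98) and miR-21a-5p (-0.82) did not pass 2-fold. miR-26a-5p, which the study followed by RT-qPCR, is counted at 2 loci with equal reads, 51 each in KD cats and 489 each in KD dogs. Each copy was 3.60-fold lower in KD cats, with a log2 ratio of -1.85 (-2.29 to -1.43) and -1.35 (-1.80 to -0.94) on the remaining reads. miR-26b-5p, with the same seed, had 8 reads in KD cats against 49 in KD dogs and a log2 ratio of -1.20 (-2.49 to -0.11). miR-148a-3p had 31 reads in KD cats and 271 in KD dogs, a log2 ratio of -1.71 (-2.30 to -1.18) and -1.22 (-1.81 to -0.68) on the remaining reads, whereas miR-148b-3p of the same seed had 7 reads in KD cats against 11 in KD dogs and a log2 ratio of 0.76 (-0.84 to 2.26). Within this seed, miR-148a-3p made up 81.6% of the reads in KD cats (65.7 to 92.3%) and 96.1% in KD dogs (93.1 to 98.0%). miR-21a-5p, which promotes renal fibrosis through TGF-β signalling, had 143 reads in KD cats (0.601%) and 1120 reads in KD dogs (1.77%). It was 2.94-fold lower in KD cats, with a log2 ratio of -1.56 (-1.82 to -1.30), and 2.09-fold lower on the remaining reads (log2 ratio -1.06, -1.32 to -0.81). miR-22-3p had 159 reads in KD cats against 717 in KD dogs and a log2 ratio of -0.76 (-1.02 to -0.51), which shrank to -0.27 (-0.52 to -0.02) on the remaining reads. miR-29a, miR-29b and miR-29c, repressors of collagen genes, had 2, 0 and 0 reads in KD cats and 6, 1 and 4 reads in KD dogs, too few to compare.

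miR-221-3p and miR-222-3p, neighbours on the X chromosome that act on the cell cycle inhibitor p27, were almost absent from the KD cat library. miR-222-3p had 1 read in KD cats and 43 in KD dogs, a log2 ratio of -4.01 (-9.35 to -1.46). miR-221-3p had 2 reads in KD cats and 17 in KD dogs, with a log2 ratio of -1.67 (-4.83 to 0.40). With such low counts in KD cats the size of these ratios is known only within a wide interval. The same holds for miR-30b-5p, named after its values were seen, with 1 read in KD cats, 50 in KD dogs and a log2 ratio of -4.23 (-9.56 to -1.69). miR-92b-3p, also named after its values were seen, had 0 reads in KD cats and 28 in KD dogs. With 3 reads put in place of 0 it was 3.50-fold lower, and 2.49-fold on the remaining reads. These 2 values take the KD dog count as exact and have no interval.

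**Figure D3:**
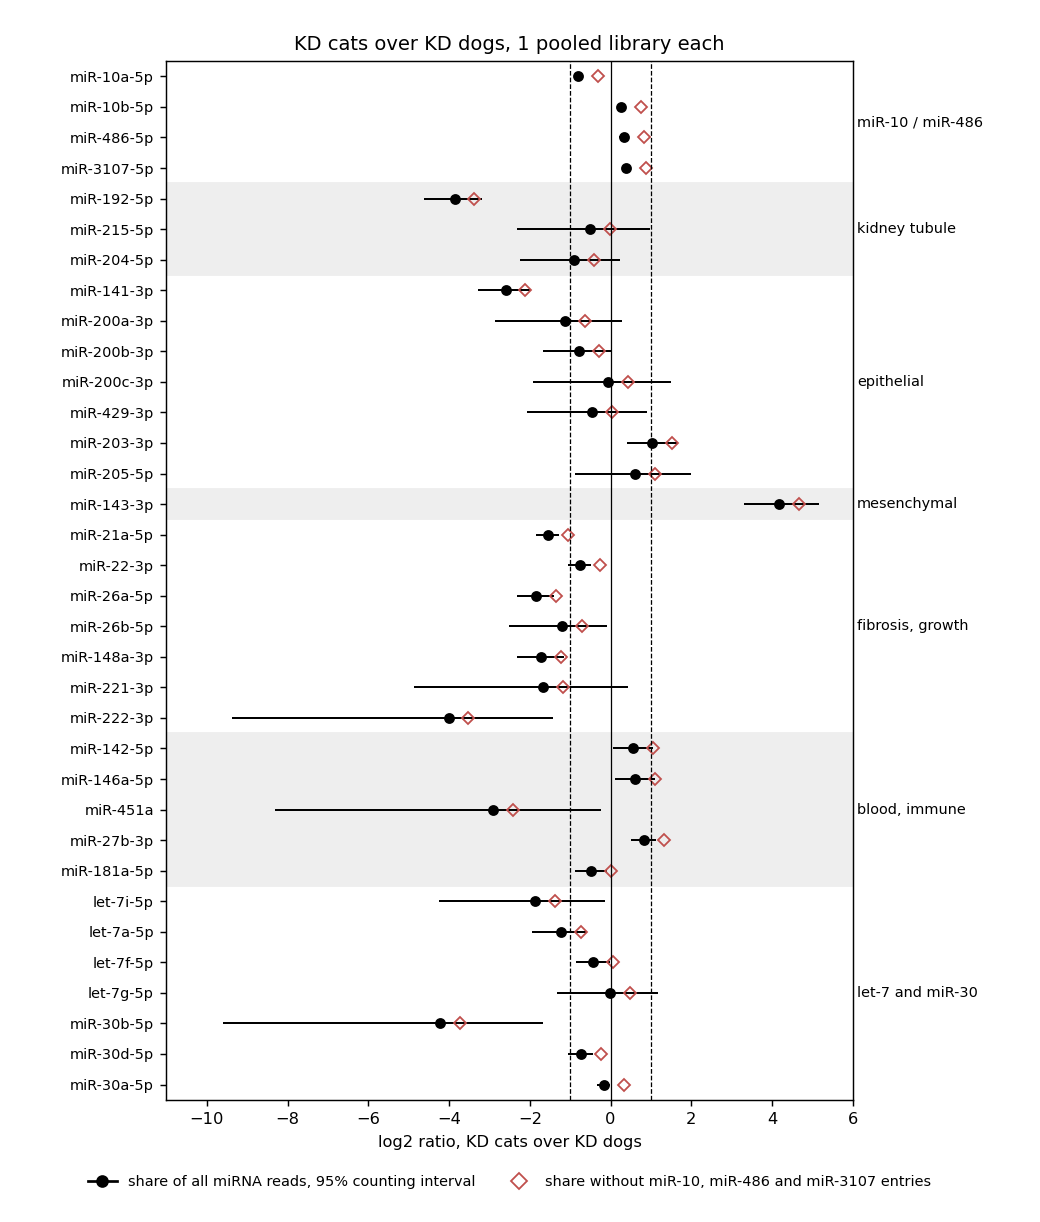
Log2 ratio of KD cats over KD dogs for entries grouped by role. Filled points with lines give the share of all miRNA reads with its 95% counting interval, open diamonds the remaining reads, and dashed lines 2-fold. miR-192-5p (-3.86) and miR-141-3p (-2.60) lie left of the other tubular and epithelial entries, and miR-143-3p (4.17) lies far right.

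miR-142-5p, the measured miRNA of the white blood cell list, had a higher share in KD cats and miR-451a of the red blood cell list a lower one, although on unscaled counts both had fewer reads in the smaller KD cat library. miR-142-5p had 62 reads in KD cats (0.261%) and 112 reads in KD dogs (0.177%), a log2 ratio of 0.56 (0.09 to 1.02) and 1.05 on the remaining reads. Of the other white blood cell miRNAs, miR-223 had 2 reads in KD cats and 8 in KD dogs, miR-150 had 1 in KD cats and 3 in KD dogs, and miR-155 had 0 in KD cats and 1 in KD dogs. miR-146a-5p, a brake on NF-κB signalling, had 62 reads in KD cats against 108 in KD dogs and a log2 ratio of 0.61 (0.14 to 1.08) on all reads and 1.11 (0.63 to 1.57) on the remaining reads. Its seed partner miR-146b-5p had 2 reads in KD cats against 11 in KD dogs and a log2 ratio of -1.05 (-4.26 to 1.15). miR-27b-3p had 171 reads in KD cats (0.719%) and 257 reads in KD dogs (0.406%). Its log2 ratio was 0.83 (0.54 to 1.11) on all reads and 1.32 (1.03 to 1.60) on the remaining reads, so it passed 2-fold on the second scale. The other measured entries of the miR-23, miR-27 and miR-24 list had negative log2 ratios on all reads, -0.34 (-1.69 to 0.84) for miR-27a-3p and -1.29 (-4.48 to 0.86) for miR-23b-3p, with intervals that include 0. For miR-146a-5p and miR-27b-3p, too, the direction turned on unscaled counts. The red blood cell miRNA miR-451a had 1 read in KD cats and 20 in KD dogs, a log2 ratio of -2.91 (-8.28 to -0.26). miR-486-5p and miR-3107-5p, which red blood cells also hold, had log2 ratios of 0.33 (0.23 to 0.43) and 0.39 (0.31 to 0.48), and miR-144 had 0 reads in both KD libraries. The red blood cell entries were thus on both sides of 0. miR-25-3p had 18 reads in each library, which is a log2 ratio of shares of 1.41 (0.39 to 2.44). Markers of other tissues were near 0. miR-122 of liver and the striated muscle miRNAs had 0 reads in both KD libraries, and miRNAs of nervous tissue summed to 3 reads in KD cats and 7 in KD dogs.

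The let-7 family, repressors of growth genes such as RAS and HMGA2, held 146 reads in KD cats (0.614%) and 640 reads in KD dogs (1.01%). The summed log2 ratio was -0.72 (-0.99 to -0.46) on all reads and -0.23 (-0.49 to 0.04) on the remaining reads. Of 8 measured entries, 3 were over 2-fold lower and 0 higher on all reads with a median of -0.93, and 1 was lower and 0 higher on the remaining reads with a median of -0.44. The share of all 96 entries over 2-fold lower was 31.2% on all reads and 16.7% on the remaining reads. At its chromosome 9 locus, let-7a-5p had 24 reads in KD cats and 150 in KD dogs, with a log2 ratio of -1.23 (-1.92 to -0.60). At its X locus let-7f-5p had 71 reads in KD cats and 255 in KD dogs (-0.43, -0.83 to -0.05). let-7b-5p, of the RT-qPCR panel, had 4 reads in KD cats against 20 in KD dogs, with a log2 ratio of -0.91 (-2.92 to 0.67). At the ends of the family, let-7i-5p had 3 reads in KD cats against 29 in KD dogs and -1.86 (-4.22 to -0.17), and let-7e-5p had 5 reads in KD cats against 12 in KD dogs and 0.15 (-1.71 to 1.76).

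The miR-30 family, abundant in podocytes and tubules, was led by miR-30a-5p with 585 reads in KD cats (2.46%) and 1749 reads in KD dogs (2.76%). Its log2 ratio was -0.17 (-0.30 to -0.03) on all reads and 0.33 (0.19 to 0.46) on the remaining reads. miR-30d-5p had 123 reads in KD cats against 545 in KD dogs (log2 ratio -0.73, -1.03 to -0.45) and miR-30e-5p had 78 reads in KD cats against 359 in KD dogs (-0.79, -1.16 to -0.43). miR-30c-5p on chromosome 1 had 12 reads in KD cats against 97 in KD dogs (-1.60, -2.60 to -0.73). Within this seed, miR-30a-5p made up 72.9% of the reads in KD cats (69.6 to 75.9%) and 61.9% in KD dogs (60.1 to 63.7%). The make-up of the family thus differed between these 2 libraries beyond counting error.

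Of the other abundant miRNAs, miR-191-5p of the RT-qPCR panel had 355 reads in KD cats (1.49%) and 658 in KD dogs (1.04%), a log2 ratio of 0.52 (0.33 to 0.71) and 1.02 on the remaining reads. miR-181a-5p, also of that panel and abundant in lymphoid cells, had 78 reads in KD cats against 289 in KD dogs at its chromosome 2 copy. Its log2 ratio there was -0.48 (-0.86 to -0.11) and became 0.02 (-0.36 to 0.38) on the remaining reads. miR-378a-3p, encoded within Ppargc1b, had 46 reads in KD cats against 112 in KD dogs and a log2 ratio of 0.13 (-0.40 to 0.64). miR-182-5p of the miR-183 cluster had 129 reads in KD cats against 510 in KD dogs and a log2 ratio of -0.57 (-0.86 to -0.29), which became -0.076 (-0.37 to 0.21) on the remaining reads. For the last 3 the side of 0, or whether the interval included 0, depended on the scale.

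Entries with few reads made up most of the higher side. Of the 12 entries over 2-fold higher in KD cats, miR-143-3p and miR-203-3p had over 22 reads in the KD cat library, and the other 10 had from 6 to 22. miR-103-3p and miR-107-3p, which target Dicer and insulin signalling genes and differ by G22C, had higher shares in KD cats, apart from a turned direction of the chromosome 2 copy of miR-103-3p on unscaled counts (-0.13). The miR-103-3p copies had 11 and 7 reads in KD cats and 12 and 3 reads in KD dogs, and miR-107-3p had 6 in KD cats and 4 in KD dogs. Their summed seed had a log2 ratio of 1.75 (0.82 to 2.70). Named after their values were seen, miR-130a-3p had 17 reads in KD cats and 6 in KD dogs (log2 ratio 2.92, 1.51 to 4.55), miR-298-5p had 17 in KD cats and 5 in KD dogs (3.18, 1.68 to 4.97) and miR-470-5p had 22 in KD cats and 11 in KD dogs (2.41, 1.31 to 3.60). By name, 88 of the 96 entries matched a dog miRNA gene of RefSeq (assembly UU_Cfam_GSD_1.0). The 8 that were not matched were let-7i-5p, miR-5126, miR-3107-5p, miR-2137, miR-378c, miR-295-3p, miR-470-5p and miR-298-5p.

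Ratios within a library, which no scaling can move, differed between KD cats and KD dogs beyond counting error for some arms and family members. miR-10a-5p made up 13.7% of the miR-10a-5p and miR-10b-5p reads in KD cats (13.2 to 14.2%) and 24.6% in KD dogs (24.2 to 25.1%). The 3p arm of miR-151, a miRNA whose locus gives mature RNA from both arms, had 147 reads and the 5p arm 5 in KD cats, so that it took 96.7% (92.5 to 98.9%) in KD cats and, with 281 and 67 reads, 80.7% in KD dogs (76.2 to 84.8%). miR-423-3p had 2 of 25 reads of its locus in KD cats (0.984 to 26.03%) and 29 of 167 in KD dogs, 17.4% (11.9 to 23.98%). miR-30e-3p had 15.2% in KD cats (8.58 to 24.2%) and 6.75% in KD dogs (4.46 to 9.74%). Of 6 miRNAs with both arms measured, the intervals overlapped for 4, and they did not for miR-151 and miR-486. The share of miR-486 leaves out the reads of the same 5p sequence counted as miR-3107-5p, 1812 in KD cats and 3674 in KD dogs. It thus depends on how reads were divided between these loci. For identical sequences counted at several loci, the intervals of the share of a copy overlapped between KD cats and KD dogs for 9 of 9 with at least 10 reads in each. miR-3107-5p took 59.9% of the reads of its sequence in KD cats (58.1 to 61.7%) and 58.9% in KD dogs (57.7 to 60.1%). let-7f-5p on chromosome X took 83.5% in KD cats (73.9 to 90.7%) and 78.0% in KD dogs (73.1 to 82.4%). Reads of such copies cannot be told apart by their mature sequence, so their separate values are uncertain.

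**Figure D4:**
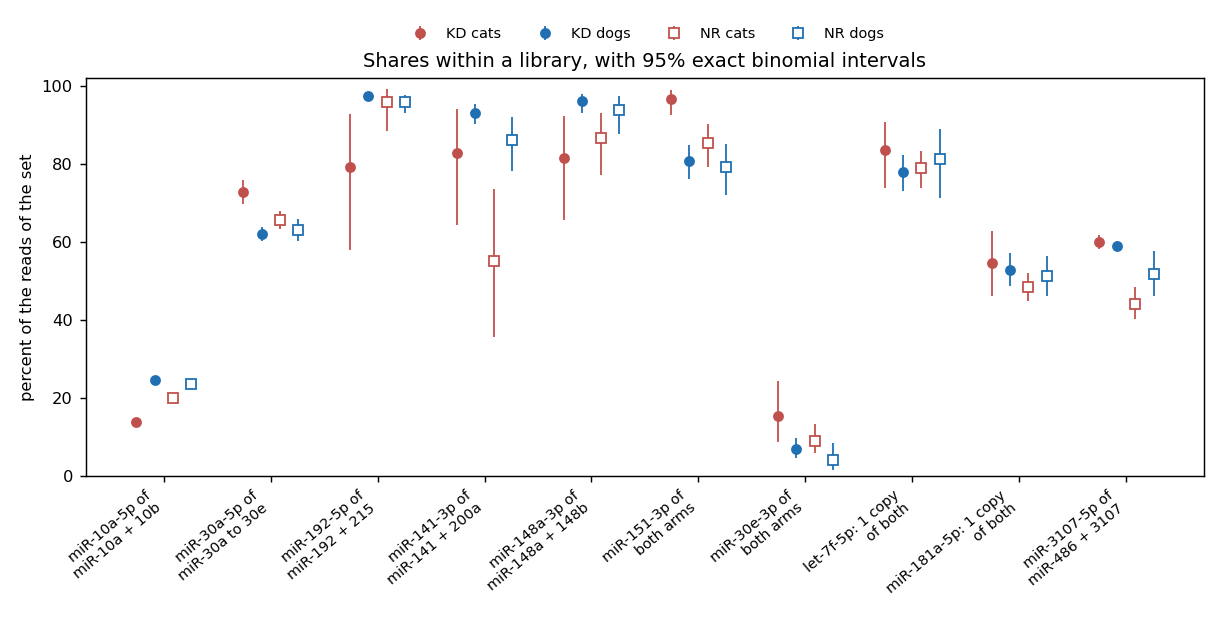
Percent of the reads of a set taken by the named member, in KD cats, KD dogs, NR cats and NR dogs, with 95% exact binomial intervals. Sets are family members of shared seed, arms of a miRNA and genomic copies of a sequence. miR-10a-5p takes 13.7% in KD cats and 24.6% in KD dogs, while the copies of let-7f-5p, miR-181a-5p and miR-486 overlap between KD cats and KD dogs.

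The depth of the 2 libraries bears on detection. A read was present for 155 entries in KD cats and 180 in KD dogs. At 23784 reads, the depth of KD cats, KD dogs would be left with 149.8 entries on average by analytic rarefaction. Among the remaining reads, KD dogs would be left with 131.8 entries at 3316 reads, below the number found in KD cats. Both KD libraries held 129 entries, 26 were seen in KD cats alone with at most 3 reads each, and 51 in KD dogs alone with at most 28.

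The NR libraries give the same comparison of species without KD. NR cats held 18704 mature miRNA reads, of which 47.9% (47.2 to 48.6%) came from the same 8 entries. NR dogs held 20878, of which 76.4% (75.8 to 77.0%) did. The comparison of NR cats and NR dogs shares no library with that of KD cats and KD dogs. Of its 95 entries, 46 were over 2-fold higher in NR cats (48.4%) and 10 lower (10.5%) on all reads, and 24 higher (25.3%) and 29 lower (30.5%) on the remaining reads. The remaining reads were used for NR as an alternative chosen after seeing the data. With the whole counting interval past 2-fold, 25 were higher in NR cats (26.3%) and 2 lower (2.11%) on all reads, and 4 higher (4.21%) and 9 lower (9.47%) on the remaining reads. Over the 82 entries with at least 10 reads in each comparison, Pearson's r between both sets of log2 ratios was 0.16 and Spearman's rho 0.14. The entries share their libraries and are not independent, so no p-value is given.

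On the remaining reads, 14 of the 82 entries were over 2-fold lower in KD cats and 28 in NR cats, of which 7 were lower in both. Another 17 were over 2-fold higher in KD cats and 18 in NR cats, of which 5 were higher in both. In opposite directions past 2-fold were 8, of which 3 were lower in KD and higher in NR and 5 the reverse. The 3 were let-7i-5p, miR-423-3p and miR-451a. The 5 were miR-130a-3p, miR-298-5p, miR-470-5p, miR-205-5p and the chromosome 2 copy of miR-181b-5p. The NR intervals of miR-451a (-0.13 to 2.34), miR-130a-3p (-3.84 to 0.51) and miR-298-5p (-2.87 to 0.48) included 0. The 7 lower in both were miR-192-5p, miR-141-3p, both copies of miR-26a-5p, miR-148a-3p, miR-151-5p and miR-30b-5p. miR-30b-5p had 7 reads in NR cats and 9 in NR dogs, and its NR interval included 0 (-3.01 to 0.25). The NR log2 ratios of the miR-26a-5p copies were only -0.07 and -0.17 on all reads. The 5 higher in both were miR-143-3p, miR-142-5p, miR-146a-5p, miR-27b-3p and miR-25-3p. On all reads, 12 of the 82 were past 2-fold in opposite directions, 10 of them lower in KD and higher in NR, against 6 in the same direction. On that scale 27 were lower in KD cats and 9 in NR cats, and 8 were higher in KD cats and 38 in NR cats. Of the 6, 3 were lower in both (miR-192-5p, miR-141-3p and miR-181c-5p) and 3 higher in both (miR-143-3p, miR-203-3p and miR-25-3p), so miR-192-5p, miR-141-3p, miR-143-3p and miR-25-3p were on the same list on both scales. For miR-192-5p there were 70 reads in NR cats and 304 in NR dogs, a log2 ratio of -1.96 (-2.36 to -1.58). miR-141-3p had 16 reads in NR cats and 93 reads in NR dogs, a log2 ratio of -2.38 (-3.25 to -1.61). miR-143-3p had 207 reads in NR cats against 20 in NR dogs, a log2 ratio of 3.53 (2.87 to 4.27). miR-25-3p had 27 reads in NR cats against 3 in NR dogs, a log2 ratio of 3.33 (1.63 to 5.69).

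The ratios of miR-142-5p, miR-146a-5p and miR-22-3p were larger between the NR than between the KD libraries, a difference that was not tested. On all reads, 66 of the 82 shared entries had a lower log2 ratio in KD than in NR, with a median difference of -1.47. On the remaining reads 36 of the 82 did. There the log2 ratios in KD and NR were 1.05 and 5.13 for miR-142-5p, 1.11 and 3.40 for miR-146a-5p and -0.27 and 1.07 for miR-22-3p. The log2 ratio of miR-142-5p was 0.56 in KD, against 6.27 (5.14 to 7.73) in NR, with 415 reads in NR cats and 6 in NR dogs. For miR-146a-5p it was 0.61 in KD, against 4.54 (3.67 to 5.56) in NR, with 229 reads in NR cats and 11 in NR dogs. For miR-22-3p it was -0.76 in KD, against 2.22 (2.03 to 2.40) in NR, with 1269 reads in NR cats and 305 in NR dogs. miR-10b-5p had a log2 ratio of 0.25 (0.23 to 0.28) in KD and -0.68 (-0.73 to -0.64) in NR, on opposite sides of 0, whereas miR-10a-5p was lower in cats in both (-0.79 in KD and -0.97 in NR). Summed white blood cell reads (miR-142, miR-223, miR-150 and miR-155) were 65 in KD cats, 124 in KD dogs, 453 in NR cats and 8 in NR dogs. Their part in the other differences was not tested.

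**Figure D5:**
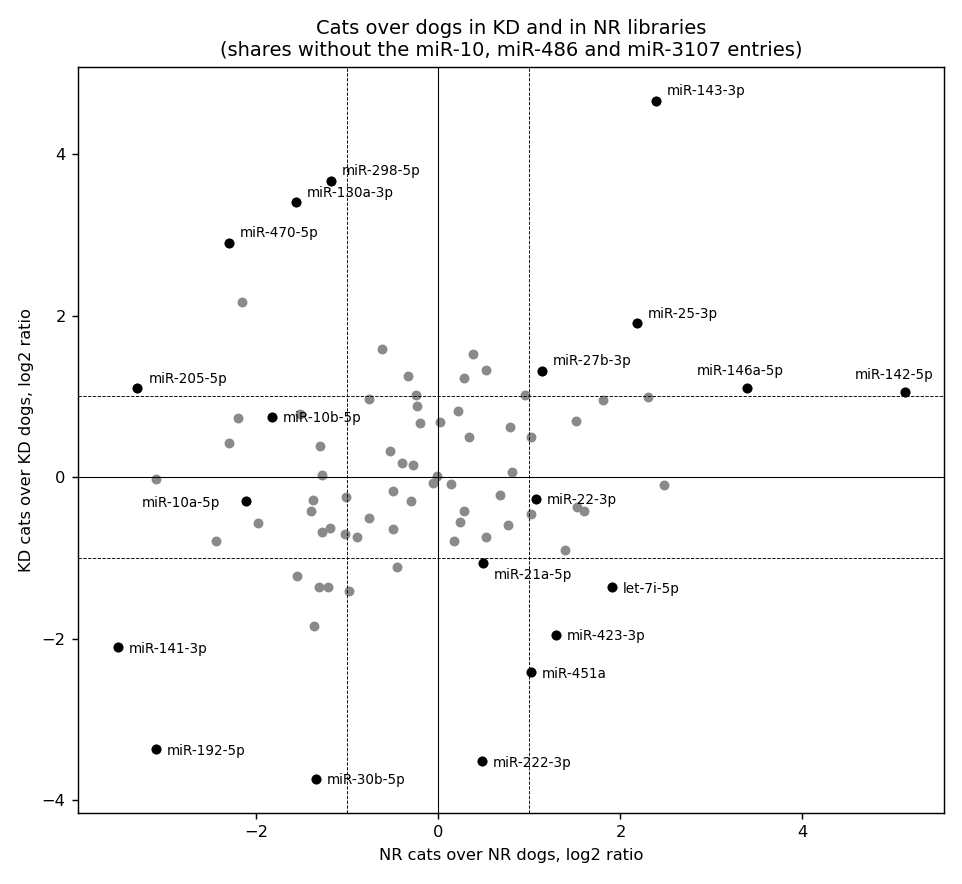
Log2 ratio of cats over dogs in the KD libraries (y) and in the NR libraries (x) on the remaining reads, for entries with at least 10 reads in each comparison. Dashed lines mark 2-fold. miR-192-5p and miR-141-3p lie low in both, miR-143-3p lies high in both, and miR-142-5p and miR-146a-5p lie far right at only about 2-fold in KD (1.05 and 1.11).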

How the data were processed

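Exosome RNA from urine of KD cats, KD dogs, NR cats and NR dogs was pooled per group, and 4 small RNA libraries were sequenced. The authors removed adaptors and reads with too short an insert, and mapped cat and dog reads alike to mouse (mm10) with Bowtie 1.0.0, keeping reads that map to many places. StrandNGS then gave counts for mouse small RNAs. CASAVA 1.8.2 is named as well in the processing notes of the submitters. The sources used here do not state how reads mapping to several loci were assigned. A cat or dog miRNA that differs from the mouse sequence can be undercounted, and this can differ by species. The deposited read counts per mature miRNA were used. The deposited log2 values, normalized with TMM by the authors, differ from log2 counts by a constant in each library, with a factor of 2.36 in KD cats and 0.531 in KD dogs. The table had 4 emptied lines, which are not analysed here.

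Log2 ratios of KD cats over KD dogs were computed from shares of mature miRNA reads for entries with at least 10 reads over both libraries, on all reads and on the reads outside the 8 entries of miR-10, miR-486 and miR-3107. A library without a read of an entry was given a floor of 3 reads. Such a ratio takes the other count as exact and has no interval. Interval code was tested on simulated data, and a fold over 2 was the criterion. Intervals and floors cover counting error only, as PCR reads without molecular identifiers are not independent molecules. Library depth beyond the miRNA reads was not used.

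Members and 27 lists of miRNAs were chosen with earlier results of these data known. Named entries were the 10 most abundant of each library, the 10 with the largest ratio each way on either scale among those with at least 100 reads in the higher library, the miRNAs the study took into RT-qPCR and up to 4 entries per list, which gave 67. Further entries were named after their values were seen: miR-30b-5p, miR-92b-3p, miR-130a-3p, miR-298-5p, miR-470-5p, miR-28a-5p, miR-200c-3p, miR-429-3p, miR-205-5p, let-7e-5p, let-7i-5p, miR-30e-3p, miR-486-3p, the unmatched entries and the threshold examples. Alternatives were 6 scalings (edgeR 4.0.16 and DESeq2 1.42.0 gave factors only), read minimums, folds and sums over copies. Computation used Python 3.11.15, scipy 1.17.1, pandas 2.3.3 and R 4.3.3.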

Additional observations from a re-analysis of the deposited data

Results flagged for a closer look

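For 3 entries with at least 50 reads in each comparison, cats were over 2-fold lower than dogs in the KD libraries and over 2-fold higher in the NR libraries, with both counting intervals on their side of 0. The difference between both comparisons was not tested, since each group is 1 library. For miR-21a-5p the log2 ratio of cats over dogs was -1.56 in KD and 1.63 in NR, a difference of -3.19. By RT-qPCR in individual cats, without dogs, the study found miR-21a higher in KD than in NR when normalized to urinary creatinine or urinary RNA. Its raw level did not differ significantly. The study states that its sequencing and RT-qPCR results differed, and it ascribes this to the pooling of samples for sequencing. let-7a-5p on chromosome 9 had -1.23 in KD and 1.66 in NR, a difference of -2.89, and its copy on chromosome 13 had -1.08 and 1.91, a difference of -2.99. The median difference over the 82 shared entries was -1.47, so a part of each is common to most miRNAs. On the reads outside the 8 leading entries the median difference was 0.17, and the ratios became -1.06 in KD and 0.49 in NR for miR-21a-5p, -0.74 and 0.52 for let-7a-5p on chromosome 9 and -0.59 and 0.77 for its copy on chromosome 13.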

How the results depend on the processing

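The counts of entries past 2-fold depended on the scaling and on the read minimum. Entries over 2-fold higher in KD cats numbered 12, and 23 on the reads outside the 8 leading entries (miR-10, miR-486, miR-3107), 29 on the deposited normalized values and 4 on unscaled counts. They numbered 31 with a minimum of 1 read, 2 with 50 reads, 1 with 100 reads, 20 at a fold of 1.5, 5 at a fold of 4 and 4 where the whole counting interval lay past 2-fold. The lower entries numbered 30, and 16, 12 and 70 under the same 3 scalings and 17 with edgeR's TMM factors. They numbered 32 with a minimum of 1 read, 15 with 50 reads and 10 with 100 reads. At a fold of 4 they numbered 7, and by the whole interval 9. The median log2 ratio was -0.49, and -0.048 without those entries, 0.22 on the deposited values, -0.20 with edgeR, -1.91 on unscaled counts, -0.037 with a minimum of 1 read, -0.73 with 50 and -0.66 with 100. A scaling shifts all ratios by 1 constant, and a higher minimum leaves fewer entries. Of 67 named entries, 35 were lower and 4 higher in KD cats under all scalings that gave a value, 26 turned, and the rest had equal read counts in both libraries. Among entries past 2-fold on all reads, miR-203-3p (-0.38), miR-295-3p (-0.32) and miR-103-3p on chromosome 2 (-0.13) turned on unscaled counts. No paired analysis was possible because each group is 1 pooled library. With 3316 reads outside the leading entries in KD cats, a ratio that rests on 1 or 2 reads there is known only within a wide interval.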
